A study of Homo sapiens with 6 samples.

Results

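The genes of MHC class I antigen presentation were examined in Rh30 cells, a human alveolar rhabdomyosarcoma line with a fusion of PAX3 to FOXO1. The 9 genes were chosen by name for their place in the pathway, and they are HLA-B, HLA-C, HLA-E, HLA-F, B2M, TAP1, TAP2, TAPBP and NLRC5, out of 35580 genes with at least 1 transcript in the deposited tables. Messenger RNA was sequenced from 3 control libraries and from 3 libraries with knockdown of DDX5, an RNA helicase (called siDDX5). Both groups are the same fusion-positive line and differ in the labels only by the knockdown. The control reagent, the siRNA dose and the time after transfection are not given in the sources used here. Libraries of a group are described as biological replicates, without saying how their cultures were separated, so p-values measure only the spread between these libraries. Of the 9 genes, 8 passed the filter on low counts and were tested among 15223 genes. HLA-F did not pass it.

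MHC class I molecules show peptides from inside the cell to CD8 T cells. A heavy chain (HLA-B, HLA-C, HLA-E or HLA-F) pairs with β2-microglobulin, the product of B2M, and is loaded in the endoplasmic reticulum with peptides that the TAP1-TAP2 transporter brings in from the cytosol. Tapasin (TAPBP) bridges the transporter to the empty heavy chain, and NLRC5 is a transactivator that acts at class I promoters through a shared set of sequence boxes known as SXY. Interferons raise the whole set in many cell types, and tumours often show low levels of it.

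The promoters are shown because these genes are known to share control elements. RefSeq promoter sequences on GRCh38.p14, each from 250 bases before to 50 bases after a gene's start, were at hand for 7 of the 9 genes, all but HLA-E and NLRC5. They were searched on both strands for CTGATTGG, a spelling of the NF-Y site that the SXY set holds as its Y box. The S and X boxes were not searched for, so a match need not be the Y box of that set. The other search was for an interferon response element, spelled GAAA, then any pair of bases, then GAAA. CTGATTGG was found in 4 of the 7 promoters, and in 3.81% of all 35116 promoters of the table. Capitals mark the match, which for the HLA genes reads as the reverse complement, and each run is written on the strand of its gene.
HLA-F, chr6:29723366-29723395, plus strand: ttctagagaagCCAATCAGtgtcgccgcag
HLA-C, chr6:31272130-31272159, minus strand: ttctagagaagCCAATCAGcgtctccgcag
HLA-B, chr6:31357217-31357246, minus strand: atctagagaagCCAATCAGcgtcgccgcgg
B2M, chr15:44711454-44711483, plus strand: cgggccttgtcCTGATTGGctgggcacgcg
The 3 heavy-chain runs share most of their letters, and their matches lie 56 or 57 bases before the start. The match of B2M lies 52 bases before its start, in the opposite direction and in different flanks.

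The interferon response element was found in 5 of the 7 promoters, and in 3.02% of all promoters. Capitals again mark a match, and 2 of the 5 marked matches, those of HLA-F and TAP1, read as the reverse complement. In the runs of TAP1, TAPBP and B2M a further match overlaps the end of the marked one and is not marked.
HLA-F, chr6:29723268-29723297, plus strand: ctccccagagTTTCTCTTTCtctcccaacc
TAP2, chr6:32838778-32838807, minus strand: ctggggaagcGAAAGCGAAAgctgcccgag
TAP1, chr6:32853819-32853848, minus strand: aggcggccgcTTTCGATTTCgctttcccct
TAPBP, chr6:33314079-33314108, minus strand: ccctttggagGAAAGTGAAAgtgaaaggag
B2M, chr15:44711363-44711392, plus strand: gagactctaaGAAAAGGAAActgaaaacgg
HLA-F and B2M held a match to both spellings. A match describes the letters in the window and not the binding of a factor.

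Libraries held 18202402 to 26156858 estimated counts. Levels are given as CPM, counts scaled to a common library total with TMM factors. DDX5 itself was at 1352, 1434 and 1137 CPM in control replicates 1, 2 and 3 and at 549.4, 504.5 and 395.8 CPM in siDDX5, which is −1.44 on the log2 scale (SE 0.15, edgeR adjusted p = 0.0106). All 9 rhabdomyosarcoma markers, such as MYOD1, passed the filter, and their summed level was 1400 to 1940 CPM in control and 1450 to 1610 CPM in siDDX5 libraries. Markers of leukocytes, which carry much class I, summed to 5.05 to 6.71 CPM in control and 5.19 to 7.06 CPM in siDDX5. CD3E and TYROBP were at or below the floor of 3 counts in all 6 libraries. CD14, a monocyte marker, was higher in each siDDX5 library (mean 0.462 against 0.854 CPM, log2 difference 0.89, edgeR adjusted p = 0.366), and PTPRC, found on all leukocytes, had a log2 difference of −0.69 (adjusted p = 0.547). Epithelial markers summed to 1.95 to 2.38 CPM in control and 2.41 to 3.07 CPM in siDDX5. In that list CDH1 had means of 1.63 and 2.46 CPM (adjusted p = 0.42 in edgeR), EPCAM was lower in each siDDX5 library (means of 0.209 and 0.122 CPM), and KRT19 was at 0 throughout. The part of these markers in the class I results was not tested. Endothelial markers summed to 12.1 to 14.7 CPM in control and 12.5 to 16.2 CPM in siDDX5. In bulk RNA, fewer cells of a type and less RNA per cell cannot be told apart.

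None of the 8 tested class I genes was called between siDDX5 and control at an edgeR adjusted p under 0.05, against 0.164% of all tested genes in either direction and 0.0526% called higher. A replicate block left the count at 0, against 2.59%, and DESeq2 called 0, against 2.12%. With the block the smallest edgeR adjusted p was 0.0877, for TAP1, followed by 0.142 for HLA-E. The log2 fold change was above 0 for 7 of the 8 genes, against 49.6% of all genes, with TAP2 as the exception. The median of the 8 was 0.26 on the log2 scale, and the median of all 15223 genes was −0.0016. At an unadjusted p under 0.05, 3 of the 8 were higher, HLA-B, HLA-E and TAP1, against 5.37% of all genes. DESeq2 also gave 3 at that level, against 10.8% of all genes in either direction. The blocked fit gave 5 of 8, all of them higher, against 10.2% of all genes higher. In either direction the blocked fit gave 3125 of the 15223 genes. In 3 of the 8, HLA-E, TAP1 and TAPBP, each siDDX5 library exceeded each control library, against 8.85% of all genes, and the reverse held for 0 of 8, against 9.2%. The 9 genes are in part neighbours on chromosome 6 and share the same 6 libraries, so they are not independent. They were also chosen with earlier results of these data known, so the shares of all genes serve only as a description. No test of the list was made.

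**Figure D1:**
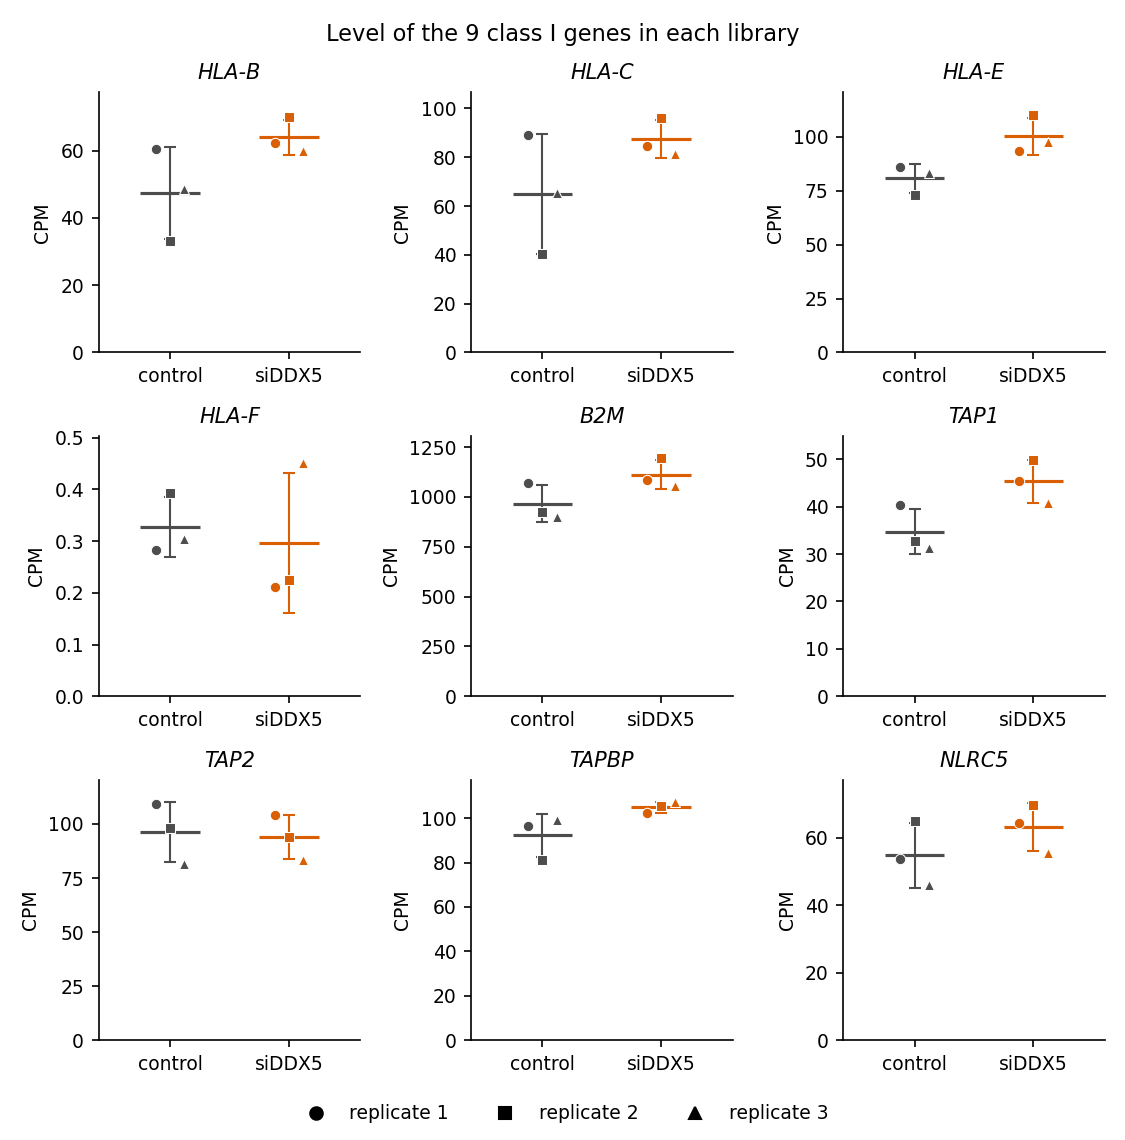
Level of each class I gene in each library, in TMM-normalised CPM on linear axes that start at 0. Points are libraries, shaped by replicate number, horizontal lines are group means and error bars are SD (n = 3). All siDDX5 points lie above all control points for HLA-E, TAP1 and TAPBP, and control replicate 2 is the lowest library for HLA-B, HLA-C, HLA-E and TAPBP.

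HLA-B (ENSG00000234745.10, GRCh38 chr6:31269491-31357188, minus strand), a classical peptide-presenting heavy chain, was at 60.64, 33.26 and 48.5 CPM in control and at 62.31, 69.9 and 59.96 CPM in siDDX5 replicates 1, 2 and 3. The groups overlapped, since control replicate 1 was above siDDX5 replicate 3, and control replicate 2 was the lowest of all. The mean was 47.5 ± 13.7 CPM in control and 64.1 ± 5.2 CPM in siDDX5 (SD, n = 3). On the log2 scale siDDX5 was higher than control by 0.43 (SE 0.19, adjusted p = 0.435 in edgeR). Without control replicate 2 this difference was 0.24, and without control replicate 1 it was 0.65.

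HLA-C (ENSG00000204525.16, chr6:31268749-31272130, minus strand), the classical heavy chain that is also a main ligand of killer-cell receptors, was at 89.03, 40.23 and 65.52 CPM in control and at 84.8, 96.05 and 81.24 CPM in siDDX5. Control replicate 2 was again the lowest library, and control replicate 1 lay among the siDDX5 libraries. HLA-C had a log2 difference of 0.43 (SE 0.23, adjusted p = 0.527 in edgeR), with 0.18 when control replicate 2 was left out and 0.73 when control replicate 1 was left out. The annotated span of HLA-B overlaps that of HLA-C on the same strand, so the division of counts between this pair rests on transcript sequence.

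HLA-E (ENSG00000204592.8, chr6:30489467-30494205, plus strand), a heavy chain that presents leader peptides of other class I chains to NK cells, was at 86.02, 73.22 and 83.05 CPM in control and at 93.35, 110.0 and 97.54 CPM in siDDX5. All siDDX5 libraries were above all control libraries. The HLA-E difference was 0.31 on the log2 scale (SE 0.11, adjusted p = 0.334 in edgeR).

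HLA-F (ENSG00000204642.13, chr6:29722775-29738528, plus strand), a non-classical heavy chain found largely inside the cell, had 7.3, 8.5 and 7.4 estimated counts in control and 4.3, 4.2 and 8.2 in siDDX5. These lie just above the floor of 3 counts, and the groups overlapped, so no difference was detectable at this depth. In CPM, which allows for the lower depth of the siDDX5 libraries, the HLA-F means were 0.327 in control and 0.296 in siDDX5. The highest library was siDDX5 replicate 3, at 0.452 CPM. The 4 heavy chains together were at 236.0, 147.1 and 197.4 CPM in control and at 240.7, 276.2 and 239.2 CPM in siDDX5, with every siDDX5 library above every control library. Summed, they differed by 0.38 on the log2 scale (SE 0.16, adjusted p = 0.42 in edgeR), and by 0.22 without control replicate 2.

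B2M (ENSG00000166710.18, chr15:44711487-44718877, plus strand), the light chain of every class I molecule, was at 1071, 926.7 and 901.8 CPM in control and at 1087, 1194 and 1053 CPM in siDDX5. The groups overlapped, with control replicate 1 above siDDX5 replicate 3. B2M differed by 0.20 on the log2 scale (SE 0.12, adjusted p = 0.543 in edgeR).

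Among the genes of peptide supply and loading, TAP1 (ENSG00000168394.11, chr6:32845209-32853978, minus strand), a subunit of the transporter, was at 40.25, 32.71 and 31.26 CPM in control and at 45.39, 49.84 and 40.81 CPM in siDDX5. All siDDX5 libraries were above all control libraries, the lowest of them by a small margin. TAP1 differed by 0.38 on the log2 scale (SE 0.14, adjusted p = 0.323 in edgeR).

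TAP2 (ENSG00000204267.13, chr6:32821833-32838780, minus strand), the partner subunit, was at 109.1, 98.22 and 81.5 CPM in control and at 104.0, 93.98 and 83.55 CPM in siDDX5. The groups covered the same range, and within each group replicate 1 was highest and replicate 3 lowest. TAP2 differed by −0.04 on the log2 scale (SE 0.14, adjusted p = 0.946 in edgeR). The difference between the 2 subunits' changes was not tested.

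TAPBP (ENSG00000231925.11, chr6:33299694-33314387, minus strand) was at 96.3, 81.0 and 99.38 CPM in control and at 102.2, 105.4 and 107.1 CPM in siDDX5. The siDDX5 libraries were all higher and close together. TAPBP differed by 0.19 on the log2 scale (SE 0.11, adjusted p = 0.562 in edgeR), by 0.10 without control replicate 2 and by 0.31 with counts from length-scaled TPM.

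NLRC5 (ENSG00000140853.15, chr16:56989485-57083531, plus strand), the transactivator, was at 53.58, 65.0 and 45.86 CPM in control and at 64.25, 69.57 and 55.46 CPM in siDDX5. The groups overlapped, and replicate 2 was the highest library in each. NLRC5 differed by 0.20 on the log2 scale (SE 0.15, adjusted p = 0.637 in edgeR). The difference was 0.09 without control replicate 3 and 0.35 without control replicate 2.

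**Figure D2:**
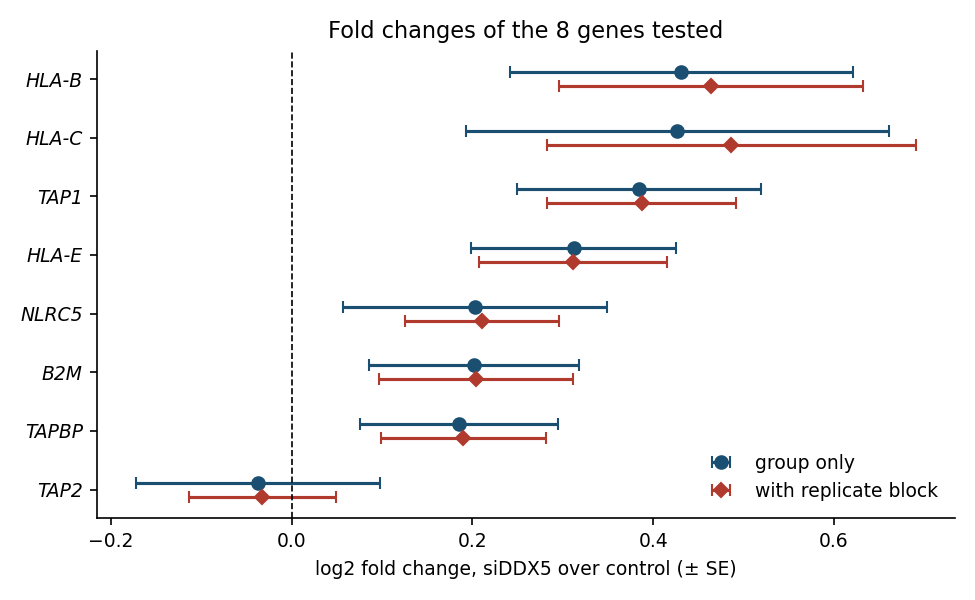
Log2 fold change of siDDX5 against control for the 8 tested class I genes, with bars of 1 standard error from the edgeR fit and the fit with a replicate block beside it. TAP2 is the only gene below 0 in both fits, at −0.04 without the block, and HLA-B and HLA-C are the highest, both at 0.43 without it.

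Comparing the same-numbered libraries, HLA-B, HLA-E, B2M, TAP1, TAPBP and NLRC5 were higher in siDDX5 in all 3 pairs, 6 of the 8 tested genes against 21.8% of all genes. The pair of replicate 2 differed most for HLA-B, at 1.07 on the log2 scale, against 0.04 and 0.31 in pairs 1 and 3. HLA-C differed by 1.26 in pair 2, by −0.07 in pair 1 and by 0.31 in pair 3. NLRC5 differed by 0.26, 0.1 and 0.27 in pairs 1, 2 and 3, so that it did not follow the heavy chains in the size of its pair differences.

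On a scale per length, TPM, which divides counts by transcript length, the order of mean levels over the 6 libraries was B2M at 4454, HLA-B at 324.4, HLA-C at 78.13, HLA-E at 49.24, TAP2 at 47.05, NLRC5 at 46.3, TAPBP at 36.92, TAP1 at 23.33 and HLA-F at 0.3053. The ranges of HLA-C, HLA-E, TAP2, NLRC5 and TAPBP overlapped between neighbours in this order. The places of HLA-B and TAP2 rested in part on short models. Transcripts under 300 bases held 15.0% of the counts and 77.4% of the TPM of HLA-B, and 0.79% and 34.7% for TAP2. Without them, a restriction chosen after the values were seen, HLA-B was at 73.25 TPM, below HLA-C, and TAP2 at 30.73, below NLRC5 at 41.8 and TAPBP.

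Most class I counts were assigned to copies of the genes on alternative haplotype or patch sequences and not to the primary assembly. The copies were recognised by symbol, which does not tell these kinds of sequence apart, and all are called haplotype copies here. For HLA-C, HLA-E and HLA-F the share on haplotype copies was 100% in all 6 libraries, rounded to 3 digits, and HLA-E had at most 1.0 estimated count on the primary copy. For HLA-B it was 99.4%, 97.0% and 97.8% in control and 99.1%, 98.7% and 98.6% in siDDX5, and for TAPBP it was 98.7% or more in every library. These 5 genes were therefore read almost wholly from haplotype copies in both groups. TAP2 stood at 97.4%, 92.4% and 90.4% in control and at 95.7%, 99.2% and 95.3% in siDDX5, and these ranges overlapped.

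B2M and TAP1 were divided between the primary assembly and haplotype copies. The B2M share was 57.9%, 56.9% and 56.3% in control and 56.5%, 54.2% and 54.0% in siDDX5, on a single haplotype copy. The TAP1 share was 45.8%, 38.5% and 48.3% in control and 42.9%, 40.3% and 36.4% in siDDX5. The groups overlapped for both genes. NLRC5 has no haplotype transcript in the tables, and its share was 0 throughout. Over a whole library the share was 1.74% to 1.8%, and 262 of the 15223 tested genes (1.72%) had more than 50% of their counts on haplotype copies.

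**Figure D3:**
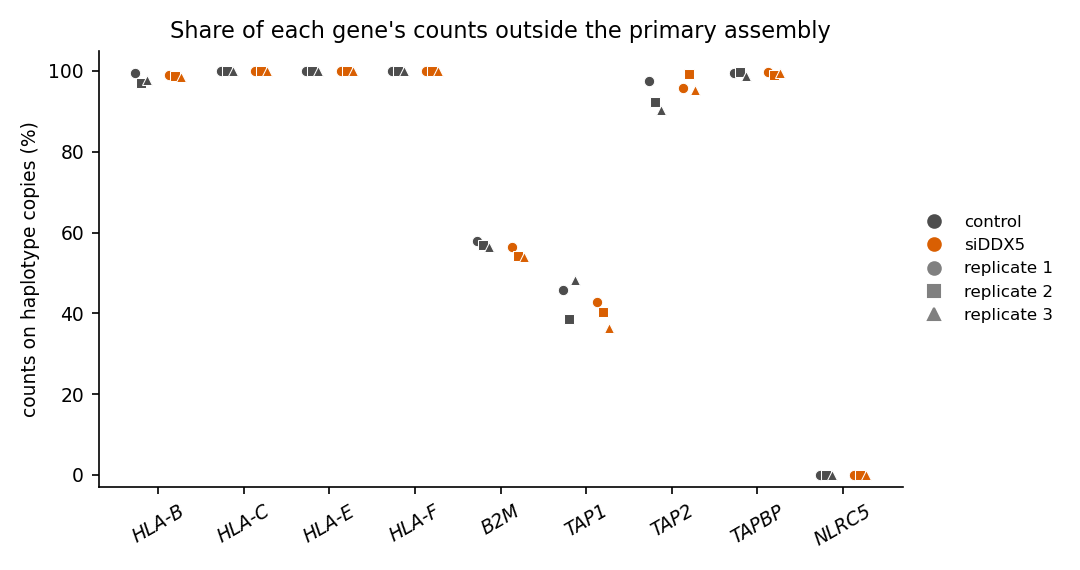
Share of each gene's estimated counts on haplotype copies, in percent, for every library of both groups. HLA-C, HLA-E and HLA-F sit at 100%, B2M and TAP1 lie near the middle, NLRC5 is at 0, and control and siDDX5 points overlap for each gene.

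The counts lay unevenly over the copies. One of the 6 haplotype copies of HLA-C held 89.6% to 93.3% of its counts, and the primary copy held 0% in every library. One of the 5 haplotype copies of HLA-B held 51.2% to 59.4%. HLA-E differed from these, since all of its counts lay on transcripts whose estimates were equal to those of others in every library. Such equal transcripts held 29.9% of HLA-B, 48.6% of TAP1 and 35.1% of TAPBP counts, so for these genes the copies could not be told apart in that part. In TAP1 the primary transcript ENST00000354258.4 was among 6 transcripts with the same counts. The TAP1 share on haplotype copies therefore rests in part on how shared reads were divided. Summing over copies by symbol removes this division from the gene level.

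TAP2 was the only class I gene called in the test of transcript usage, which asks whether the shares of a gene's transcripts differ between groups. The call covered 11 transcripts (edgeR diffSpliceDGE, Simes adjusted p = 0.0289), against 1.59% of 10704 genes called. In the blocked fit the adjusted p was 0.146 and the call was lost, against 1.21% of genes called there. The other 7 tested genes had an adjusted p of 1.0. The transcript behind the call, ENST00000619283.1 of 5676 bases on a haplotype copy, was singled out after its values were seen. It had 0.0, 7.4 and 0.0 estimated counts in control and 100.9, 113.1 and 132.5 in siDDX5. Its share of TAP2 was 0.116% ± 0.2 in control and 6.68% ± 1.97 in siDDX5 (SD, n = 3), and its level, tested among 61172 single transcripts, had an edgeR adjusted p of 0.294. In that test 0 transcripts were called, and 4333 (7.08%) had an unadjusted p under 0.05.

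The most abundant TAP2 transcripts lay on 2 haplotype copies and had the same length of 5684 bases. ENST00000419142.6, on the same copy as the transcript above, took 39.2%, 51.1% and 49.0% of TAP2 in control and 28.1%, 34.1% and 35.1% in siDDX5, lower in siDDX5 without overlap. ENST00000383239.8, on the other copy, took 48.8%, 34.2% and 33.8% in control and 54.8%, 51.0% and 46.7% in siDDX5, where control replicate 1 overlapped the siDDX5 libraries. The call was also lost without control replicate 1 (adjusted p = 0.0952), without control replicate 3 (0.216), without siDDX5 replicate 3 (0.148) and when transcripts averaging under 50 counts were dropped (0.338), all by edgeR. ENST00000612574.1, of 5676 bases on the copy of ENST00000383239.8, was also named after its values were seen. It had 86.9, 47.3 and 103.0 estimated counts in control and 80.7, 0.0 and 0.0 in siDDX5. A shift of reads between the 2 copies was not tested. The tables hold no estimate of the error of dividing reads among these transcripts.

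**Figure D4:**
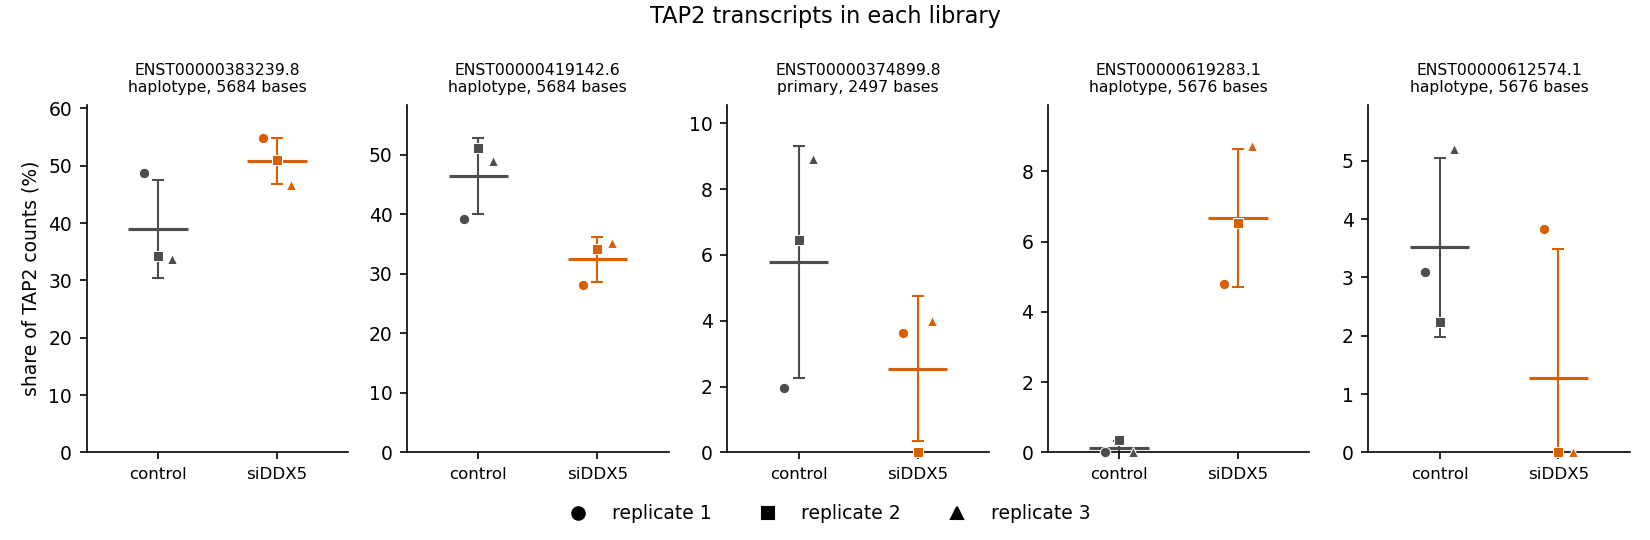
Share of TAP2 estimated counts taken by 5 of its transcripts, in percent, with group means and SD (n = 3) and a separate axis from 0 for each. ENST00000619283.1 is at or near 0 in control and at 4.8% to 8.72% in siDDX5, and the 2 largest transcripts move in opposite directions. ENST00000612574.1 is near 0 in siDDX5 replicates 2 and 3 and at 3.83% in siDDX5 replicate 1.

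The rest of the pathway was read from lists of known partners. Of all tested genes, 49.6% were above 0 and 0.164% were called, so 0 called says little about a list this short. The immunoproteasome and its activators, which cut proteins into class I peptides, had 6 of 6 genes above 0, with a median log2 fold change of 0.22 and 0 called. PSMB9, an interferon-inducible catalytic subunit whose gene neighbours TAP1, had 0.50 (SE 0.18, edgeR adjusted p = 0.336), and PSME2, an activator subunit, had 0.29 (SE 0.13, adjusted p = 0.422). Of the 9 loading and trimming partners, 5 were above 0 and 0 were called, with a median of 0.15. TAPBPL, a tapasin-related peptide editor, had 0.29 and PDIA3, the oxidoreductase of the loading complex, 0.23. Of the 7 cytosolic peptidases, 3 were above 0 and 0 were called, with a median of −0.07. LNPEP, a trimming enzyme of endosomes, had −0.34 and IDE, a cytosolic protease, −0.23.

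Of all tested genes, 49.6% were above 0 and 0.164% were called without the block. Of 14 genes of the SXY enhanceosome and class I transcription, 7 were above 0 and 7 below, with 0 called and a median of −0.01. IRF1, a transcription factor that binds interferon response elements, had the smallest p of these, at 0.47 on the log2 scale (SE 0.13, adjusted p = 0.225 in edgeR, 0.058 in the blocked fit). IRF2, its relative, had 0.24. Of 12 genes of interferon receptor signalling, 8 were above 0, 0 were called without the block and 2 with it, where 2.59% of all genes were called. These were SOCS3, a feedback inhibitor of JAK-STAT signalling, at 0.71 (SE 0.19, adjusted p = 0.2 in edgeR, 0.0136 in the blocked fit), and TYK2, a kinase of the type I receptor, at −0.39 (SE 0.10, adjusted p = 0.195, 0.0482 in the blocked fit). Of 8 genes that remove or silence class I, 3 were above 0 and 0 were called. DNMT1, the maintenance DNA methyltransferase, had −0.26 and HDAC1, a histone deacetylase, had 0.23.

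**Figure D5:**
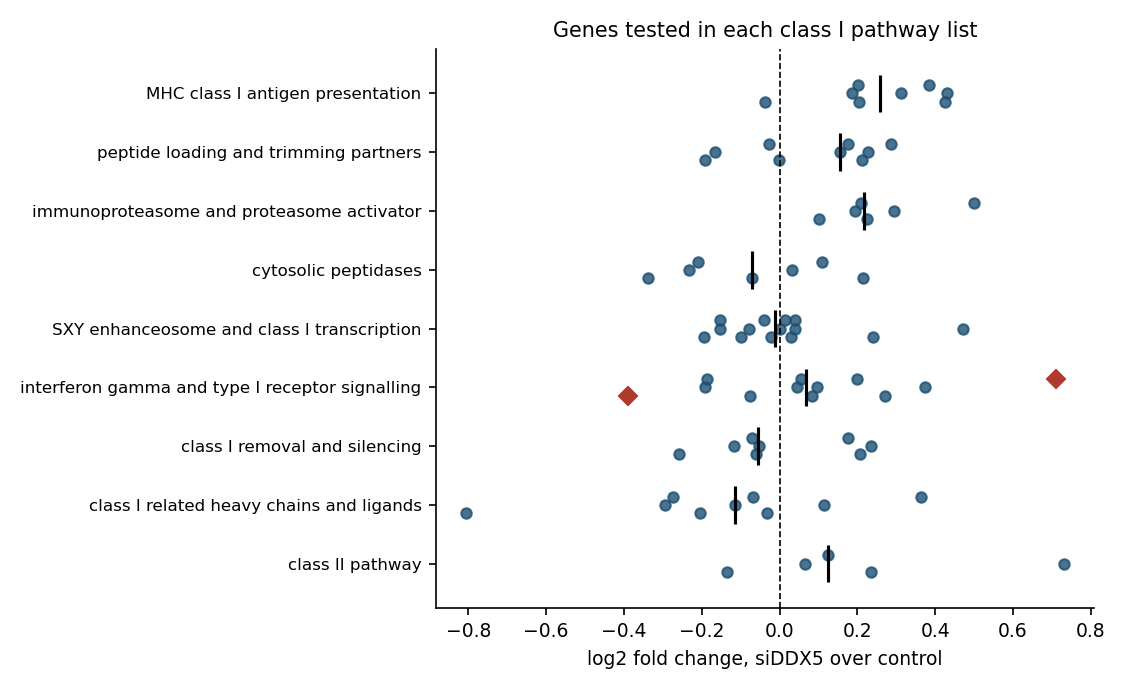
Log2 fold changes of siDDX5 against control for the tested genes of each list, with the list median as a line and the class I genes at the top. Diamonds mark SOCS3 and TYK2, called with the replicate block only. The class I median is 0.26, the immunoproteasome median 0.22, and the medians of the regulator lists lie near 0.

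The genes whose pattern over the 6 libraries was most like the mean of the class I genes, by Pearson's r among 10985 genes, were ATXN10 (0.995), LAMB3 (0.992) and ITM2B (0.988). ATXN10 was at 68.65, 46.0 and 46.22 CPM in control and at 76.97, 93.97 and 65.9 CPM in siDDX5, highest in siDDX5 replicate 2 as most class I genes were. Of the class I genes themselves, TAP1 (0.985) and B2M (0.98) lay closest to that mean, and TAP2 (0.315) and NLRC5 (0.479) farthest from it. Each of these genes is part of the mean, so their r values cannot be compared with those of the outside genes. The points are libraries that differ in depth and knockdown together, and the values are a description.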

How the data were processed

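The authors deposited 1 table per library with estimated counts and TPM per transcript. Per the submitters' processing notes, bcl2fastq 2.20, FastQC 0.11.8, cutadapt 1.11 and kallisto 0.46.0 were used, with GRCh38 and hg38 named as builds. Libraries were TruSeq stranded mRNA, per the labels. The annotation release is not given in the sources used here. The authors' TPM values carry a correction for effective length, and the estimated counts were deposited without normalization. The authors' quantifier had divided shared reads among transcripts.

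Of 188753 transcripts, 169797 were joined to genes by identifier in the GENCODE 29 primary annotation, 15315 on haplotype or patch copies by symbol and 890 by position in the table. The other 2751, with 0.402% of counts, were left out. Counts were summed per gene, rounded, filtered (filterByExpr), scaled by TMM factors and tested by group alone with glmQLFTest in edgeR 4.0.16 (R 4.3.3), with Benjamini-Hochberg adjustment over all tested genes and a threshold of 0.05. The standard error was the log2 fold change over the square root of F. Usage was tested with diffSpliceDGE. The fit was tested on simulated data. Alternatives were DESeq2 1.42.0, limma 3.58.1 on log2 TPM with pseudocounts of 1 and 0.1, length-scaled TPM, other filters and joins, a replicate block and each library left out. With 3 libraries against 3, an exact permutation test could not go below 0.1. The floor of 3 counts covers counting error only.

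Titles give the replicate numbers but not what libraries of 1 number share. Deviations of same-numbered libraries correlated at 0.21, 0.27 and 0.58 over 15223 genes for numbers 1, 2 and 3. Libraries of unlike number were not compared in this way, so a pairing is assumed and not shown. It was used in the blocked fit and in comparing same-numbered libraries, while the main fit used the group alone.

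The genes and lists were chosen with earlier results of these data known. Named besides them were DDX5, in each list every called gene or otherwise the 2 with the smallest p, the 3 genes of at least 5 CPM most like the class I mean, and up to 3 abundant transcripts per gene. Markers of cell types and genes listed at 0 were named outside this rule, after their values were seen.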

Additional observations from a re-analysis of the deposited data

How the results depend on the processing

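No class I gene was called under any alternative. B2M, HLA-C, HLA-E, NLRC5, TAP1 and TAPBP kept a log2 fold change above 0 in every alternative that gave one. With primary-assembly transcripts only, HLA-B was at −0.014, the summed heavy chains at −0.0061 and TAP2 at −0.97, and HLA-C, HLA-E and TAPBP gave no value, since nearly all their counts lie on haplotype copies. TAP2 was at 0.024 with length-scaled TPM and ranged from −0.14 (without control replicate 3) to 0.068 (without control replicate 1) when each library was left out, with 0.049 without siDDX5 replicate 3, and the cause was not tested. The 25 genes called in all became 323 with DESeq2, 136 with no filter, 2 with length-scaled TPM, 1 with limma at either pseudocount, 394 with the replicate block and 0 to 15 when each library was left out (0 without control replicate 1 or siDDX5 replicate 1). The block, which uses the pairing of the numbers, changed the calls of TAP2 usage, SOCS3 and TYK2 and no other call named here. Genes with changed transcript usage numbered 170, with 395 unfiltered, 41 at a mean of at least 50 counts and 216 to 453 when each library was left out. By TPM the haplotype share was 66.5% for B2M and 35.0% for TAP1, against 56.0% and 42.1% by counts. Depth limits HLA-F, at under 9 counts per library.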

Other observations

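The class I related heavy chains and ligands include the stress ligands of the NK receptor NKG2D. Of 12 genes, 9 were tested, 2 above 0 and 7 below, against 49.6% of all tested genes above 0. In this list 0 were called, against 0.164%, and the median log2 fold change was −0.12. RAET1E, an NKG2D ligand, had −0.81 (SE 0.40, edgeR adjusted p = 0.481) and MICA, another, −0.30 (SE 0.17, adjusted p = 0.535). HLA-G was listed at 0 in all 6 libraries.

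Of 10 genes of the class II pathway, which presents peptides to CD4 T cells, 5 were tested. Of these, 4 were above 0, against 49.6% of all tested genes, and 0 were called, against 0.164%. Their median was 0.12. CD74, the invariant chain, had 0.73 (SE 0.41, edgeR adjusted p = 0.535) at a control mean of 0.995 CPM, and HLA-DPB1 had 0.24 (SE 0.42, adjusted p = 0.875). HLA-DRA and HLA-DRB1 were listed at 0 in every library, while HLA-DQA1, named after its values were seen, had a control mean of 22.3 CPM.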
